A study of Mus musculus with 4 samples.

Results

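Levels of 8 genes for clock output factors were measured in the lumbar spinal cord of nerve-injured mice. They were the PAR bZIP activators *Dbp*, *Tef* and *Hlf*, the bZIP repressor *Nfil3*, the bHLH repressors *Bhlhe40* and *Bhlhe41*, and the nuclear receptors *Rora* and *Rorb*. The members were all probes that the array files assign to these names, which gave 12 probes for 8 of the 27516 gene names on the array. The mice were young males of ICR, an outbred stock, and all of them had part of the right sciatic nerve tied 7 days before sampling (partial sciatic nerve ligation, PSL). In ADX+PSL mice the adrenal glands had been removed and saline was given to drink, whereas in sham+PSL mice the adrenals were only exposed. RNA of L4–L5 slices was taken at Zeitgeber time (ZT) 10 or 22. Nocturnal animals with adrenals have more glucocorticoid in the blood late in the light phase (ZT10) than late in the dark phase (ZT22). The sources used here do not state how many mice gave each RNA or from which side the slices were taken. Each operation had 1 one-colour array at ZT10 and 1 at ZT22, and the 4 arrays shared 1 slide. Where 4 values of a gene follow one another below, the first pair is sham+PSL and the second pair ADX+PSL, each with ZT10 before ZT22.

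In the circadian clock, *Clock* and *Arntl* (also called *Bmal1*) activate genes through E-boxes, and *Dbp* is a classical gene of this kind. *Dbp*, *Tef* and *Hlf* carry the rhythm further through D-boxes, to which *Nfil3* binds as a repressor. *Bhlhe40* and *Bhlhe41* repress at E-boxes, and *Rora* and *Rorb* activate at ROR elements, where *Nr1d1* represses. Glucocorticoids are known to act on clock genes in many peripheral tissues.

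Levels below are normalized intensities of the authors' table in arbitrary units, and ratios are on the log2 scale unless a fold is named. The error given is the spot error, the SD that the scanner software assigns to a spot. It does not cover differences between mice or slices, for which no replicate array was measured. All 12 probes were well above background on the 4 arrays, and each was printed once. The brightest probe of a gene is the one with the highest mean log2 level over the arrays.

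Neurons and astrocytes were plainly measured in the tissue. The neuronal gene *Nefl* lay between 68827 and 84874, and the astrocyte gene *Aldoc* between 168269 and 218576. In none of the comparisons was any of the 12 neuronal genes past 1.5-fold. Of 10 astrocyte genes, *Gfap* and *Slc4a4* were past it. *Gfap* was lower at ZT10 than at ZT22 in ADX+PSL, and lower in ADX+PSL than in sham+PSL at ZT10. *Slc4a4* was higher at ZT10 than at ZT22 in ADX+PSL, and lower in ADX+PSL than in sham+PSL at ZT22. The oligodendrocyte gene *Opalin* was past 1.5-fold in 1 comparison, being lower at ZT10 in sham+PSL mice. The arrays stood apart in other tissues. The summed level of 10 meningeal fibroblast genes was 19108 at ZT10 and 16827 at ZT22 with the adrenals left in place, against 6276 and 6593 after their removal. Their most abundant gene, *Dcn*, was at 6864, 6121, 2262 and 2580 in the same order, and none of the 10 was at background on every array. At ZT10, 9 of the 10 were at least 1.5-fold lower in ADX+PSL than in sham+PSL, and at ZT22 8 were. With time, *Lum* (483, 213, 86.2 and 146) was past 1.5-fold in opposite directions, its log2 ratio of ZT10 over ZT22 being 1.18 ± 0.21 with the adrenals in place and -0.76 ± 0.21 after their removal. *Igf2* was past it in sham+PSL (lower at ZT10) and *Mgp* in ADX+PSL (higher). For 7 measured genes of red blood cells the sum was 135937, 18773, 95083 and 89827 in the same order of arrays, with *Hba-a2* at 81120, 12239, 56627 and 47305, so that sham+PSL at ZT22 was low. For 7 measured genes of skeletal muscle the sum was 2809, 353, 254 and 251, with *Tnni2* at 681, 188, 105 and 109, so that sham+PSL at ZT10 was high. *Myh1*, *Myh2* and *Mylpf* were not well above background anywhere.

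Microglial genes summed to 88324, 112489, 89081 and 97132 over 10 genes, with *Itgam* between 44355 and 53144, and *Aif1* was the 1 gene past 1.5-fold, at ZT10 against ZT22 in ADX+PSL. Endothelial genes summed to 24040, 20669, 22641 and 25871 over 8 genes, with *Slc2a1* between 6986 and 7778. Past 1.5-fold were *Ly6c1*, higher with time (ZT10 over ZT22) in sham+PSL and at ZT22 higher in ADX+PSL, *Slco1a4*, lower at ZT10 in ADX+PSL, and *Cdh5*, lower in ADX+PSL at ZT22. Among genes of Schwann cells, *Mal*, the most abundant measured, was at 57938, 62613, 70237 and 46470, and *Prx* and *Egr2* were at least 1.5-fold lower in ADX+PSL than in sham+PSL at both times. *Pmp2* was not well above background anywhere. The part of these tissue differences in the results below was not tested. In such bulk slices, fewer cells of a type and less RNA per cell cannot be told apart.

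*Dbp*, the D-box activator, was the member whose level differed most between arrays. Its brightest probe (A_55_P2032079) gave 22527 at ZT10 and 16046 at ZT22 in sham+PSL mice, and 6433 at ZT10 and 13263 at ZT22 in ADX+PSL mice. Its other probe (A_55_P2032081) gave 18103, 12315, 4560 and 10320 in the same order. The order of the arrays was thus the same on both probes, with the highest level in sham+PSL at ZT10 and the lowest in ADX+PSL at ZT10. The middle neighbours, sham+PSL and ADX+PSL at ZT22, lay within 2 spot errors of each other, and the outer steps of the order exceeded 2 spot errors. The first 30 bases of each probe are shown because the repeat measurement rests on their being separate sequences of the gene.
*Dbp*, A_55_P2032079: tggggaacccatccatccaaccgcctccat
*Dbp*, A_55_P2032081: atggccagtggtctggccagctaggtgccc
These 60-base probes lie on the plus strand of mm9 at chr7:52965461-52965520 and chr7:52965322-52965381 and do not overlap. The array files assign both to the same *Dbp* transcript.

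**Figure D1:**
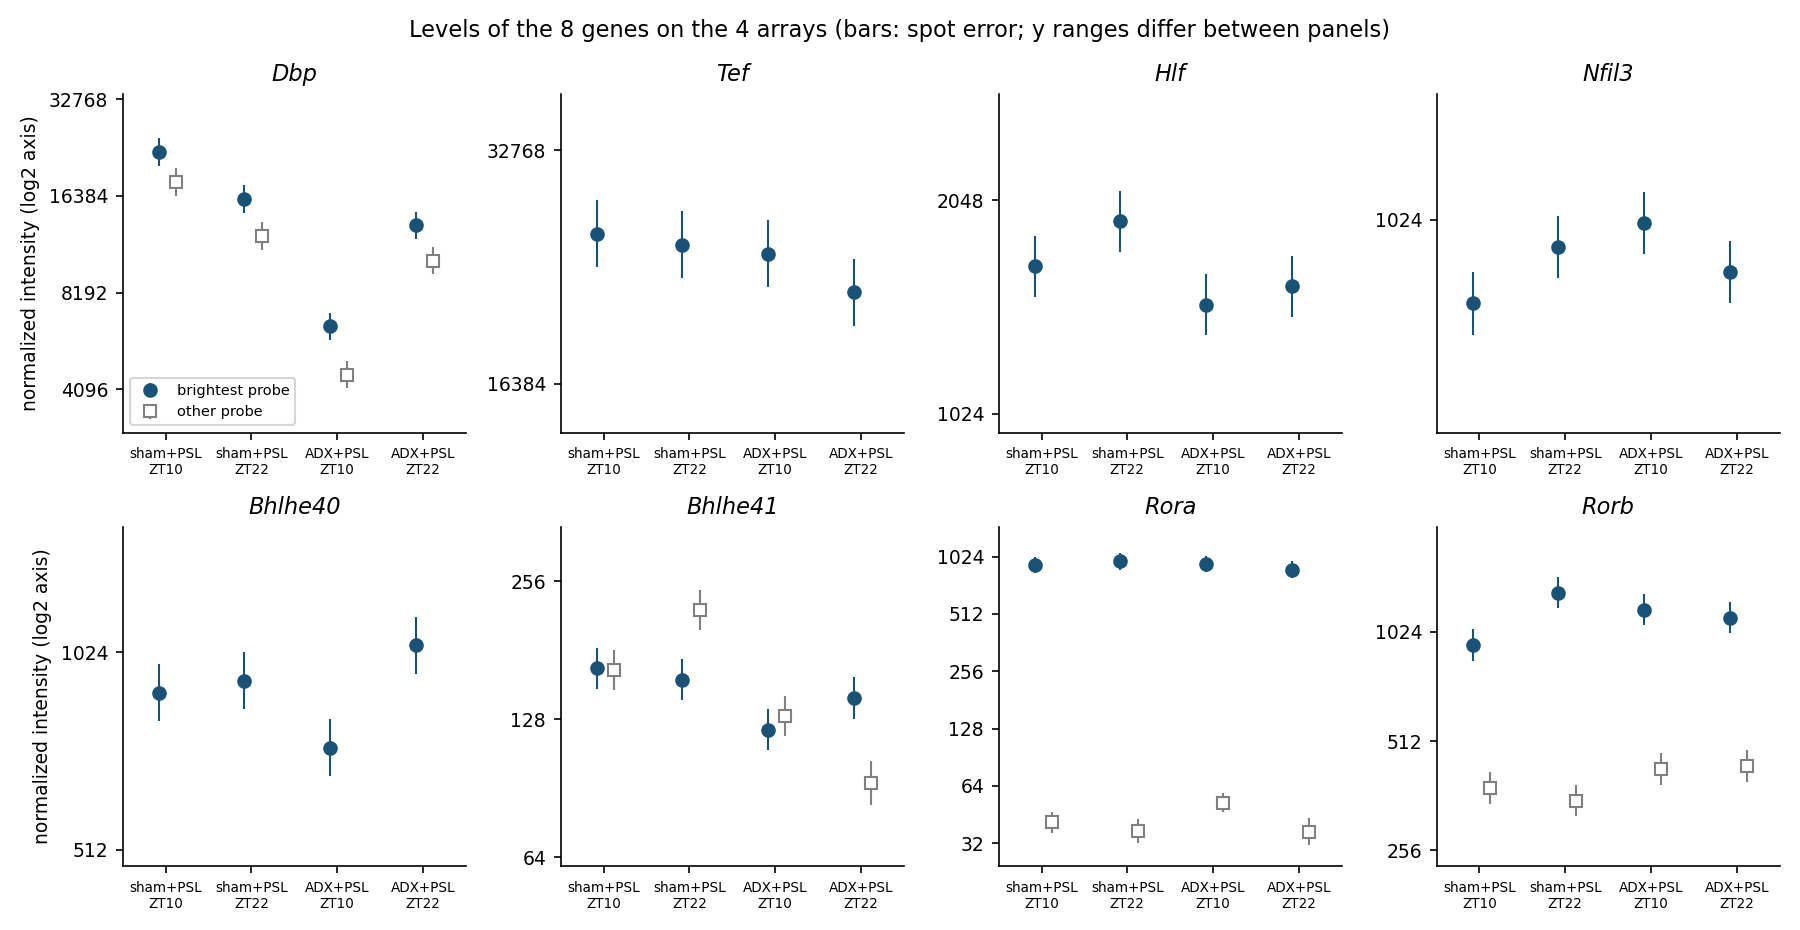
Normalized intensity (log2 axis, arbitrary units) of each gene on the 4 arrays, with spot error bars; filled circles are the brightest probe and open squares another probe of the gene. *Dbp* falls to 6433 in ADX+PSL at ZT10, against 22527 in sham+PSL at ZT10, and the brightest probes of the other 7 genes span less than 1.5-fold.

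In sham+PSL mice *Dbp* was 1.40-fold higher at ZT10 than at ZT22 (log2 ratio 0.49 ± 0.20), whereas in ADX+PSL mice it was 2.06-fold lower at ZT10 than at ZT22 (log2 ratio -1.04 ± 0.20). The other probe gave log2 ratios of 0.56 and -1.18. The pairs share no array, and on both probes the time ratio had opposite signs in the operations under each normalization tried. The log2 ratios differed by 1.53 ± 0.29 on the brightest probe and by 1.73 ± 0.29 on the other, which is 2.89-fold and 3.33-fold. Between the operations, *Dbp* was 3.50-fold lower in ADX+PSL than in sham+PSL at ZT10 (log2 ratio -1.81 ± 0.20) and 1.21-fold lower at ZT22 (log2 ratio -0.27 ± 0.20). The difference at ZT10 was past the limits of the study's methods, with a Z-score of -3.10, and the one at ZT22 was not.

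*Tef*, another PAR bZIP activator at D-boxes, did not share the course of *Dbp*. It was at 25591, 24762, 24121 and 21485 on the 4 arrays. Its time ratio was 0.05 ± 0.20 in sham+PSL mice and 0.17 ± 0.20 in ADX+PSL mice, and no pair of neighbours in the order of levels was beyond 2 spot errors. *Hlf*, the remaining PAR bZIP factor, was at 1652, 1912, 1460 and 1549 on the same arrays, with time ratios of -0.21 ± 0.20 and -0.09 ± 0.20. Both of its ADX+PSL levels were below both of its sham+PSL levels, but within 2 spot errors, with log2 ratios between the operations of -0.18 ± 0.20 at ZT10 and -0.30 ± 0.20 at ZT22.

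*Nfil3*, the repressor that competes with these activators for D-boxes, was at 782 at ZT10 and 938 at ZT22 in sham+PSL mice, and at 1015 and 866 in ADX+PSL mice. Its order was the reverse of that of *Dbp* at ZT10, with the highest level in ADX+PSL and the lowest in sham+PSL (log2 ratio of ADX+PSL over sham+PSL 0.38 ± 0.20). That difference was within 2 spot errors and below 1.5-fold. The time ratio of *Nfil3* was -0.26 ± 0.20 in sham+PSL mice and 0.23 ± 0.20 in ADX+PSL mice.

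*Bhlhe40*, a repressor at E-boxes that also responds to many acute stimuli, was at 888, 926, 733 and 1049 on the 4 arrays in the order used above. In ADX+PSL it was 1.43-fold lower at ZT10 than at ZT22 (log2 ratio -0.52 ± 0.20), the same direction as *Dbp* in these mice. Without normalization between arrays this log2 ratio was -0.65, which is past 1.5-fold. In sham+PSL the log2 ratio was -0.06 ± 0.20. Neighbours in its order of levels lay within 2 spot errors of each other.

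The probes of *Bhlhe41*, a close relative of *Bhlhe40*, disagreed. The mean log2 levels of the probes were nearly equal (7.18 and 7.18), and on the linear scale the other probe had the higher mean (152 against 146). The probe taken as brightest (A_51_P451176) gave 165, 156, 122 and 143, with time ratios of 0.08 ± 0.21 in sham+PSL mice and -0.23 ± 0.21 in ADX+PSL mice. Its order of arrays was that of *Dbp*, but neighbours in it lay within 2 spot errors of each other, and the time ratio in sham+PSL changed sign after another background correction (normexp). The other (A_55_P2133001) gave 164, 222, 130 and 92.7, with time ratios of -0.44 ± 0.21 and 0.49 ± 0.22, which are opposite in sign to those of the first. On this probe ADX+PSL was 2.39-fold lower than sham+PSL at ZT22 (log2 ratio -1.26 ± 0.22, Z-score -2.08), against a log2 ratio of -0.13 ± 0.21 on the brightest probe. At its weakest over the settings tried, the log2 ratio of A_55_P2133001 at ZT22 was -0.88. That was past 1.5-fold but short of the 2-fold ratio that the limits of the study's methods require. Both probes were lower in ADX+PSL than in sham+PSL at both times. The start of each is shown since the direction of the time ratio depends on which is read.
*Bhlhe41*, A_51_P451176: gaggagtcgccgggtttccaagttcaaacg
*Bhlhe41*, A_55_P2133001: ttgaaagcgctaacagccttaactgagcag
They lie on the minus strand of mm9 at chr6:145811275-145811334 and chr6:145812652-145812711 and are assigned to the same transcript.

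*Rora*, an activator at ROR elements, was at 924, 966, 938 and 875 on its brightest probe, and its highest and lowest levels lay within 1 spot error (log2 ratio -0.14 ± 0.20 between the operations at ZT22). Its other probe, assigned to another transcript, was dim at 41.3, 37.2, 52.3 and 36.8, and its log2 time ratio in ADX+PSL was 0.51 ± 0.28. *Rorb*, known from interneurons of the dorsal horn, was at 941, 1315, 1180 and 1122 on its brightest probe. In sham+PSL it was 1.40-fold lower at ZT10 than at ZT22 (log2 ratio -0.48 ± 0.20), and in ADX+PSL the log2 ratio was 0.07 ± 0.20. Its other probe, of another transcript, gave 380, 351, 429 and 438 and a log2 ratio of 0.11 ± 0.21 in sham+PSL, so that the *Rorb* difference was seen on 1 of its 2 probes.

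**Figure D2:**
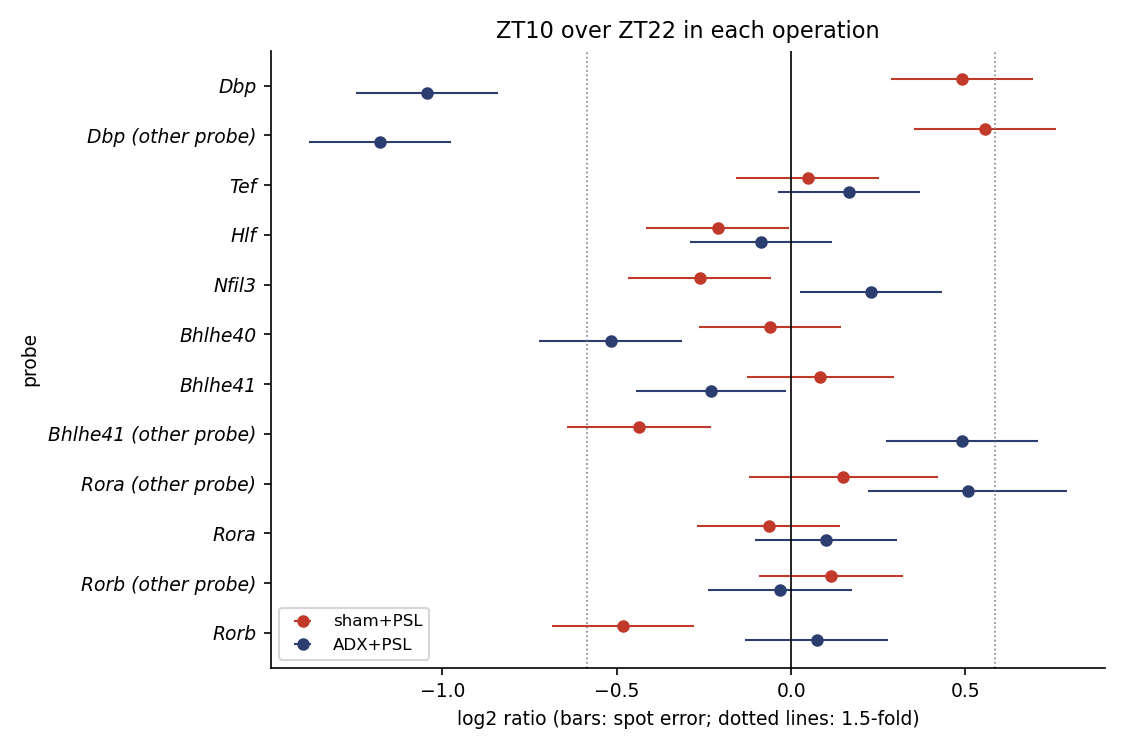
Log2 ratio of ZT10 over ZT22 for the 12 probes in sham+PSL (red) and ADX+PSL (blue), with spot error bars and dotted lines at 1.5-fold. Both *Dbp* probes lie on opposite sides of 0 in the operations (0.49 and -1.04 on the brightest), and the *Bhlhe41* probes disagree in direction.

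Whether the members differed with time of day was asked in each operation. In sham+PSL none of the 8 brightest probes was past the limits of the methods (a Z-score of at least 2 with a ratio of at least 2, or the same downward), as were 4.23% of the 27614 probes tested, which were those flagged as well above background on the brighter of the arrays compared. None was past 1.5-fold either, against 10.6% of those probes. In ADX+PSL *Dbp* was past 1.5-fold, 1 member of 8, where 9.06% of 27509 probes were. After normexp it was again *Dbp* alone, against 3.03% of 27419 probes. Without normalization between arrays *Dbp* and *Bhlhe40* were past it, against 9.79% of 27680 probes. Nothing is read about the members as a group from such small counts. No member was past the limits of the methods, against 3.77% of probes; after normexp *Dbp* was, against 0.799%. *Dbp* had the ratio required but a Z-score of -1.86 on its brightest probe, and its other probe, with -2.10, was past them. Of the 25379 probes well above background on both ADX+PSL arrays, 1.18% were past the limits of the methods and 5.17% past 1.5-fold. The median log2 ratio of the 8 members was -0.06 in sham+PSL mice and -0.01 in ADX+PSL mice, beside 0.02 in each over all probes tested.

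No member was past 1.5-fold in the same direction in both operations, as were 1.65% of 26426 probes. After the values had been seen, the probes were also counted whose ratios of ZT10 to ZT22 lay at least 2-fold apart between the operations. *Dbp* was the 1 member among them, and they made up 3.07% of the 25012 probes with levels well above background on each of the 4 arrays. Opposite signs in the operations with each ratio beyond 2 spot errors, also counted afterwards, were found for 1.05% of these probes (262) and, of the members' brightest probes, for *Dbp* alone.

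**Figure D3:**
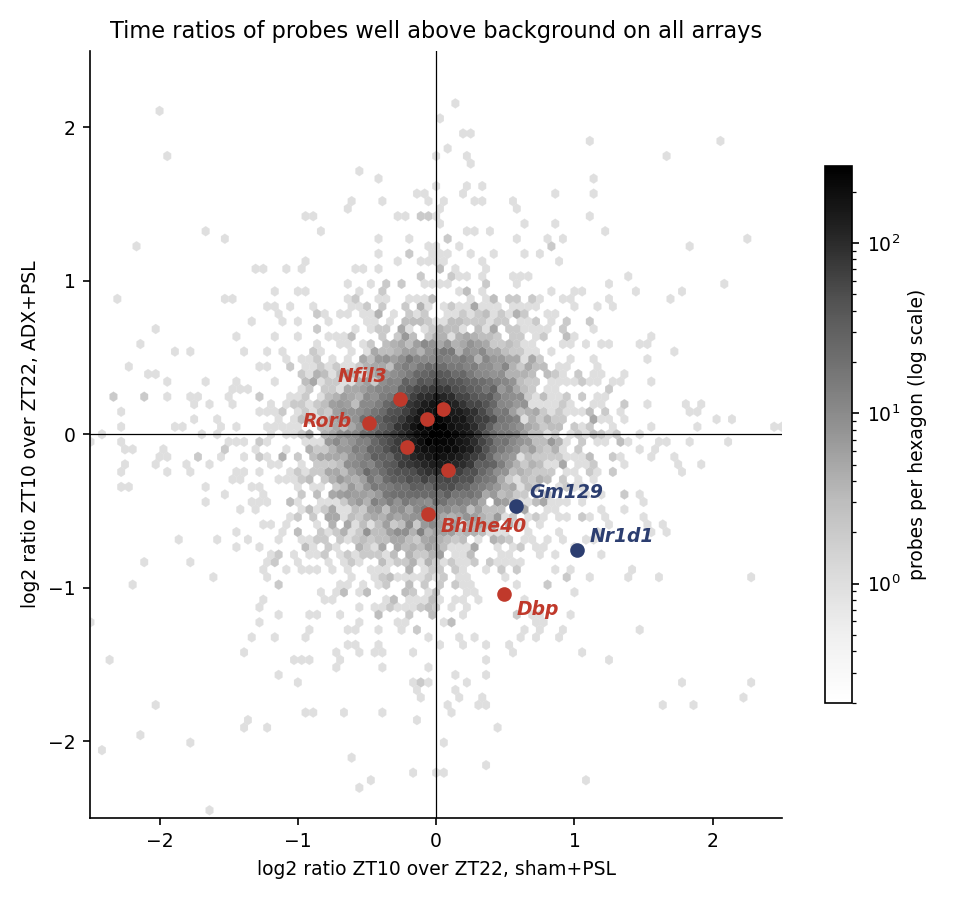
Log2 ratio of ZT10 over ZT22 in sham+PSL (x axis) and ADX+PSL (y axis) for the same 25012 probes, as hexagons shaded by number; 54 probes lie outside the axes. Red points are the brightest probes of the 8 members and blue points *Nr1d1* and *Gm129*; *Dbp* lies at 0.49 and -1.04, to the lower right with these genes.

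Whether removal of the adrenals went with a difference was asked at each time. At ZT10 *Dbp* was the 1 member past the limits of the methods, which 4.52% of 28300 probes passed, and the 1 member past 1.5-fold, which 11.6% passed. After normexp *Dbp* was again the 1 member past each, against 1.09% and 3.72% of 28240 probes. With both arrays well above background it was also *Dbp* alone, against 1.43% and 7.03% of 26416 probes. At ZT22 no brightest probe was past either limit, against 3.66% and 10.2% of 26830 probes. With both arrays well above background these shares were 1.02% and 6.32% of 25144 probes. The other *Bhlhe41* probe was past both limits. With the probe of highest linear mean, an alternative chosen after the values were seen, 1 member was thus past each limit. At the weakest log2 ratio of that probe over the settings tried (-0.88), it was past 1.5-fold but not past the limits of the methods. At ZT22, 7 of the 8 members were lower in ADX+PSL and 1 (*Bhlhe40*) was higher, with a median log2 ratio of -0.17 beside 0.00 over all probes. All 8 of these ratios were between -0.30 and 0.18, and the count of 7 includes *Nfil3*, whose ratio changed sign without normalization between arrays (0.01), and *Rorb*, whose ratio did so with the mean over its probes (0.04). At ZT10 5 members were lower and 3 higher, with a median of -0.13 beside 0.00, and the higher ones include *Rora* (0.02), whose ratio was between -0.07 and 0.18 over the alternatives.

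**Figure D4:**
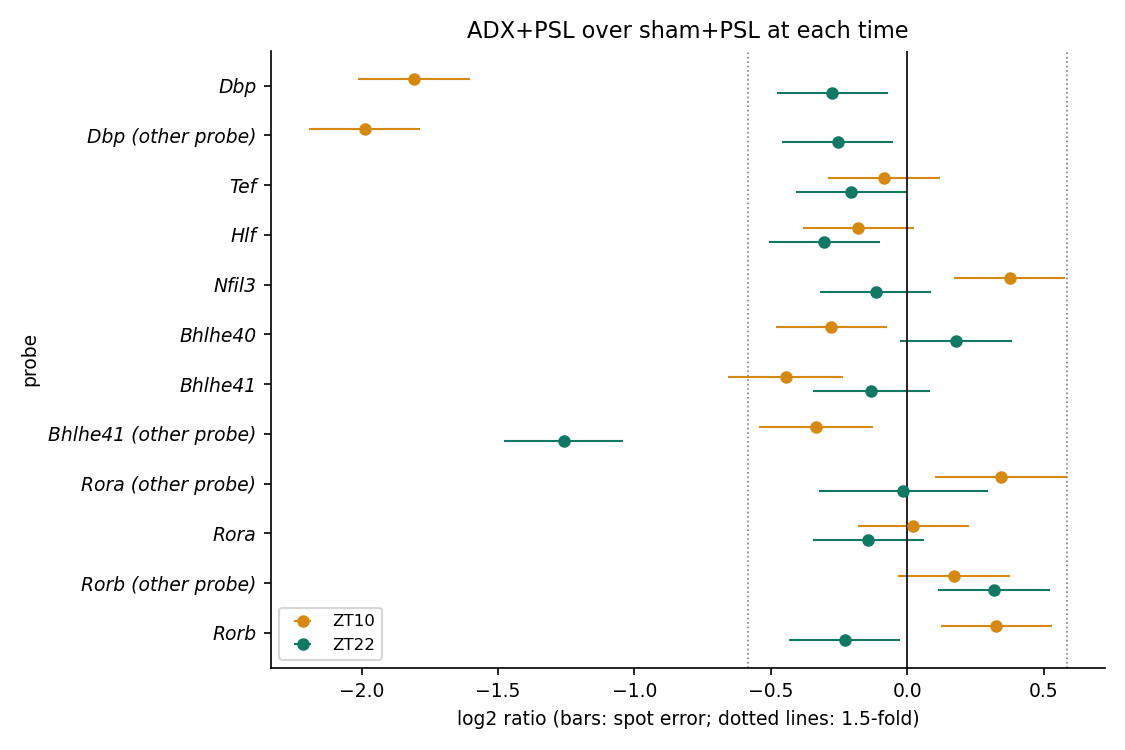
Log2 ratio of ADX+PSL over sham+PSL for the 12 probes at ZT10 (orange) and ZT22 (green), with spot error bars and dotted lines at 1.5-fold. The *Dbp* probes at ZT10 (-1.81 and -1.99) and 1 *Bhlhe41* probe at ZT22 (-1.26) lie beyond the dotted lines.

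In a fit of time and operation to all 4 arrays (limma, 1 residual degree of freedom, Benjamini-Hochberg adjustment), the arrays of the other operation stood in for replicates. No member was called for time or for operation, nor was any of the 28845 probes (0.0% for each). At an unadjusted p under 0.05 there were 1420 probes for time and 1803 for operation, with none of the 8 brightest member probes among them. For *Dbp* the fitted operation effect was -1.04 (SE 0.47, limma adjusted p = 0.83), lower in ADX+PSL at both times, and the fitted time effect was -0.28 (SE 0.47, limma adjusted p = 0.97). The fit takes the difference between the time ratios of the operations as its error, which for *Dbp* was 1.53.

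Of 20 names of clock network genes, 19 were on the array, each of them well above background on at least 1 array; *Ciart* was present under its older name *Gm129*. In sham+PSL 1 of them, *Nr1d1*, was at least 1.5-fold higher at ZT10 and none was lower. In ADX+PSL 1 was higher (*Npas2*) and 1 lower (*Nr1d1*) at ZT10 than at ZT22. At ZT10, 2 were higher in ADX+PSL than in sham+PSL (*Arntl* and *Npas2*) and 2 lower (*Nr1d1* and *Gm129*), and at ZT22 none was higher and 1 was lower (*Gm129*). The shares of all probes past 1.5-fold in these comparisons were 10.6%, 9.06%, 11.6% and 10.2%. After normexp these shares were 4.07%, 3.03%, 3.72% and 3.94%, and none of the list was past 1.5-fold in ADX+PSL or at ZT22, nor *Npas2* at ZT10. Without normalization between arrays, *Per1* and *Gm129* were also past it in sham+PSL, against 11.0% of probes, and *Gm129* was not at ZT22, against 11.2%. With both arrays well above background *Npas2* was not past it in ADX+PSL. *Npas2* was well above background on 2 arrays. None passed the limma fit or was past 1.5-fold in the same direction in both operations. The median log2 ratio of the list was 0.09 with time in sham+PSL, 0.12 with time in ADX+PSL, -0.07 between operations at ZT10 and -0.11 at ZT22. *Csnk1d*, a kinase that marks PER proteins and the most abundant of the list, was at 17585, 16273, 16790 and 15037.

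Orders of arrays were compared with that of *Dbp* after the values had been seen. The highest array was sham+PSL at ZT10 and the lowest ADX+PSL at ZT10 for *Bhlhe41*, 1 of the 7 other members on their brightest probes, and for *Nr1d1*, *Gm129* and *Per2* among 18 clock network genes well above background throughout, beside 6.77% of the 25010 probes of other genes. The whole order was that of *Dbp* for *Bhlhe41*, *Nr1d1* and *Gm129*, beside 3.41% of these probes. The genes described next were chosen after their values were seen. *Nr1d1*, the repressor at ROR elements, was at 715 at ZT10 and 352 at ZT22 in sham+PSL mice, and at 189 and 319 in ADX+PSL mice. Its log2 ratio of ZT10 over ZT22 was 1.02 ± 0.20 in sham+PSL mice and -0.75 ± 0.21 in ADX+PSL mice, and at ZT10 ADX+PSL was below sham+PSL by a log2 ratio of -1.92 ± 0.21. After normexp these were 0.89, -0.53 and -1.58. *Gm129*, a repressor of *Clock* and *Arntl* activity, was at 199, 133, 61.7 and 85.4, with time ratios of 0.58 ± 0.21 and -0.47 ± 0.24. After normexp these were 0.32 and -0.37, and its log2 ratios between the operations went from -1.69 to -1.0 at ZT10 and from -0.64 to -0.30 at ZT22. *Per2*, a repressor in the core loop, was at 128, 118, 99.2 and 122, all within 2 spot errors. *Arntl* was at 529, 508, 838 and 662 and so higher in ADX+PSL at both times, with log2 ratios of 0.67 ± 0.20 at ZT10 and 0.38 ± 0.20 at ZT22. *Per1*, which glucocorticoid is known to induce, was at 2977, 2109, 2124 and 1601. It was higher at ZT10 in both operations (0.50 ± 0.20 and 0.41 ± 0.20) and lower in ADX+PSL at both times (-0.49 ± 0.20 and -0.40 ± 0.20). All were below 1.5-fold except in sham+PSL without normalization between arrays (0.59). After normexp the time ratios of *Per1* were 0.39 and 0.25, both within 2 spot errors, and those between the operations were -0.46 and -0.32. *Per1* therefore kept 1 time direction in both operations where *Dbp* did not; the difference between the genes was not tested.

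By the distance between mean-centred log2 levels over the 4 arrays, the genes most like *Dbp* among 16692 gene names were *Crym* (0.27), *Prosc* (0.28) and *Tchhl1* (0.30). *Crym*, which encodes a binding protein for thyroid hormone, was at 539, 415, 135 and 356 in the order of arrays used above. *Prosc*, a pyridoxal phosphate-binding protein, was at 578, 339, 159 and 364, and *Tchhl1* at 66.2, 38.6, 17.9 and 42.6. Under each of 4 other normalizations 2 of these 3 genes were among the nearest 3. *Nr1d1* and *Gm129* had distances of 0.43 and 0.43, at ranks 14 and 16. The nearest other member was *Bhlhe41* (0.99), at rank 617. No other member spanned 1.5-fold on its brightest probe, so no such genes were sought for them.

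**Figure D5:**
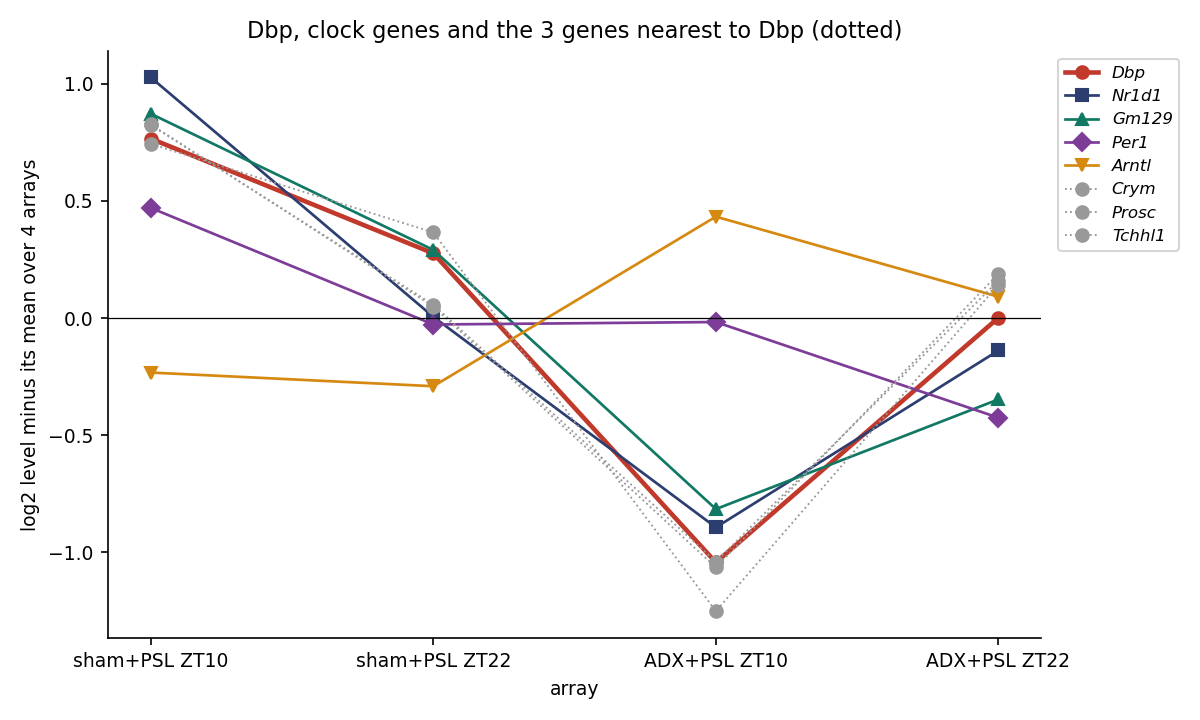
Log2 level of each gene minus its mean over the 4 arrays, for *Dbp* (red), 4 clock genes and the 3 genes nearest to *Dbp* (dotted grey); lines join arrays of different mice and are no time course. *Dbp*, *Nr1d1* and *Gm129* are highest in sham+PSL at ZT10 and lowest in ADX+PSL at ZT10, and *Arntl* is highest where they are lowest.

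Of 10 genes known as targets of PAR bZIP factors or *Nfil3* in other tissues, 9 were on the array and measured. At ZT10 none was past 1.5-fold between the operations. At ZT22, 2 were higher in ADX+PSL (*Por* and *Nr1i3*) and 3 lower (*Ddc*, *Abcb1b* and *Cyp2b10*), 5 of 9 in all, where 10.2% of all probes were past it. The count was 1 of 9 after normexp (*Ddc*), against 3.94% of probes, and 4 with both arrays well above background, against 6.32%. Without normalization between arrays it was 3, against 11.2%. The list was not tested against all probes. With time, *Cyp2b10* was lower at ZT10 in sham+PSL, the 1 gene past 1.5-fold there, and it was well above background on 1 array. In ADX+PSL none was past 1.5-fold, but *Por* was lower at ZT10 without normalization between arrays. *Cyp2b10* was not past it with both arrays well above background. None passed the limma fit, and the median log2 ratios were 0.04 and -0.07 with time in sham+PSL and ADX+PSL and -0.09 and -0.16 between the operations at ZT10 and ZT22. *Pdxk*, the kinase that makes pyridoxal phosphate and the most abundant of the list, was at 24969, 22026, 24762 and 22711. *Por*, the reductase that supplies cytochrome P450 enzymes with electrons, was at 4427, 3938, 4035 and 5988. The *Dbp* level was lowest in ADX+PSL at ZT10, where *Pdxk* was within 1 spot error of its level in sham+PSL at ZT10 (log2 ratio -0.01 ± 0.20). Any link between the levels of these genes was not tested.

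Promoters (250 bases before to 50 after a start, RefSeq, GRCm38.p6) were read for 7 of the 8 members, 9 promoters in all. Searched on both strands were the E-box CACGTG, the D-box TTATGTAA or TTACGTAA, and the consensus ROR element. The E-box was in 3 of the 9 promoters, those of *Tef* (both starts) and *Bhlhe41*, and in 7.15% of all 32851 promoters. The D-box (1.06% of promoters) and the ROR element (0.384%) were in none of the 9. The windows of *Dbp* and *Nr1d1* held no match to the 3 motifs, whereas that of *Gm129* held 3 E-boxes. The stretches before the start that hold E-boxes are shown, with the E-box in capitals, because they fall on genes with the order of arrays of *Dbp* (*Gm129*, and *Bhlhe41* on its brightest probe) and on genes with another order (*Tef* and *Per1*).
*Gm129*, minus strand, chr3:95882261-95882350: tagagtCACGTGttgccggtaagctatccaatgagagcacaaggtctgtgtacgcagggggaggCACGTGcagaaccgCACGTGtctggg
*Tef*, plus strand, chr15:81802519-81802578: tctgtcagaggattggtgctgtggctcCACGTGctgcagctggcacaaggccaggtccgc
*Tef*, plus strand, chr15:81811249-81811308: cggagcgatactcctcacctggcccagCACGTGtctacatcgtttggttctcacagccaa
*Bhlhe41*, minus strand, chr6:145865541-145865600: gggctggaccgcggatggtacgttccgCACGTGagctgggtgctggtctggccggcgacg
*Per1*, plus strand, chr11:69098756-69098815: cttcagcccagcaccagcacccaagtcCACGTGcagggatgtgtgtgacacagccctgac
The E-boxes begin 116, 58 and 44 bases before the start of *Gm129*, 127 and 138 bases before the starts of *Tef*, and 153 bases before that of *Bhlhe41*. That of *Per1* begins 166 bases before 1 of its starts. Of the other clock genes read, *Per3* held D-boxes 205 and 158 bases before its start, *Arntl* held a ROR element after 1 of its starts, and *Nr1d2* held none of the motifs. A match is a run of letters and was not tested for binding.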

How the data were processed

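Lumbar spinal RNA was labelled with Cy3 and hybridized to 4 Agilent arrays of 60-base probes on 1 slide. The authors deposited, per array, the spot intensity from Feature Extraction (version 10.7.1.1 in the file headers, 9.5.1.1 in the submitters' notes) with its error and background flags, and a table of probe intensities. Set against each array's scanner values, the table was linear, uncentred and quantile-normalized, with a median of 105 on every array. After removal of 1377 control spots, 43020 spots of 39429 probes were used per array. No spot was saturated, and between 25658 and 27652 probes were well above background. The number of arrays limits the precision. Log2 levels and ratios were computed from the table. For Z-scores, log2 ratios were centred on the mean of all probes and scaled by their SD. A probe past a limit had to carry the scanner's flag for well above background on its brighter array. The additive model was fitted with limma 3.58.1 (R 4.3.3) to probes with that flag on 1 array or more. Python 3.11.15, numpy 2.4.6 and pandas 2.3.3 served for the rest. Steps were tested on simulated data. Named were the members with all probes, genes of the clock and PAR bZIP target lists called in the fit or past 1.5-fold in both operations and otherwise the most abundant, the most abundant and undetected genes of each cell type list, and the 3 genes nearest to a member that spanned 1.5-fold. Other names were chosen after their values were seen, as stated there. Some genes that the rule names are not reported here. The members and lists were chosen with earlier results of these data known. *Cyp2a5* and *Ncmap* were not found among the array's gene names. Alternatives were other normalizations, background correction (normexp, offset 50), averaging of a gene's probes, other filters and limits, an intensity trend, and the fit without the other factor or without each array.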

Additional observations from a re-analysis of the deposited data

Results flagged for a closer look

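Of the 12 member probes and 26 probes of clock network genes that were well above background throughout, 3 and 1 had ratios of ZT10 to ZT22 with opposite signs in the operations, each beyond 2 spot errors. Over all 25012 such probes there were 262 (1.05%). On the brightest *Dbp* probe the log2 ratios were 0.49 (sham+PSL) and -1.04 (ADX+PSL), a difference of 1.53, and its other probe gave 0.56 and -1.18, a difference of 1.73. For *Nr1d1* the ratios were 1.02 and -0.75, a difference of 1.78. For the *Bhlhe41* probe A_55_P2133001 they were -0.44 and 0.49, a difference of -0.93, and the other *Bhlhe41* probe did not share these signs (0.08 and -0.23). At their weakest over the settings tried, the ratios of A_55_P2133001 were -0.33 and 0.35. These lay within 2 of its spot errors (0.21 and 0.22). Each condition had 1 array, and the difference between the operations was not tested for any of them.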

How the results depend on the processing

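Over the 8 members, 4 comparisons and 6 alternatives, 187 of 192 log2 ratios moved by less than their spot error, 5 moved by more, and none past 1.5-fold changed sign. The 5 came from averaging the probes of *Bhlhe41* or *Rorb*. For *Dbp* the difference between the time ratios of the operations was 1.70 at the most and moved from 1.53 by less than its spot error on the settings tried.

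Counts of members moved in 6 instances. In ADX+PSL with time, 1 member (against 0) was past the limits of the methods after normexp, where 0.799% of 27419 probes were. Without the Z-score 1 member (against 0) was past the ratio limit, as were 1199 of 27509 probes. Without normalization between arrays, 2 (against 1) were past 1.5-fold, *Dbp* and *Bhlhe40*, where 9.79% of probes were. At ZT22, 1 (against 0) was past 1.5-fold between the operations with the mean over a gene's probes (*Bhlhe41*, -0.70). No share over all genes is given for that mean. With the probe of highest linear mean, chosen after seeing the data, 1 (against 0) was past each limit at ZT22. Of all probes, 3.66% were past the limits of the methods there and 10.2% past 1.5-fold. The member was *Bhlhe41*, whose probe A_55_P2133001 fell short of the limits of the methods on another setting (-0.88). In the fit, the count of probes for time went from 0 to 9 with normexp, 11 with probes well above background on all arrays and 14 with an intensity trend. For operation it went from 0 to 10, 13 and 39, and to 6 without the other factor. With 3 arrays, which leave no residual degree of freedom beside the other factor, the fit was made without that factor, and without each array in turn both counts were 0, and no member was called on any setting. The cause was not tested.

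Counts of probes past 1.5-fold, in the order sham+PSL, ADX+PSL, ZT10 and ZT22, were 2926, 2492, 3271 and 2749. With normexp they were 1123, 832, 1051 and 1056, with both arrays above background 1675, 1311, 1858 and 1588, and with no filter 5443, 5162, 5502 and 5576. Past the limits of the methods they were 1168, 1038, 1280 and 982. With normexp they were 310, 219, 307 and 280, with both arrays above background 336, 299, 379 and 257, and with no filter 1966, 1991, 1925 and 2012. With normexp the probes in the same direction went from 435 to 110, and those 2-fold apart from 767 to 321. The share of higher probes among those past 1.5-fold went from 55.8% to 67.5% (75th percentile) and 45.4% (normexp) in ADX+PSL, from 51.1% to 62.0% (75th percentile) and 46.1% (normexp) at ZT10, from 49.3% to 57.2% (no normalization) and 43.9% (normexp) in sham+PSL, and from 45.3% to 58.3% at ZT22 without normalization, where the median of all probes was 0.12. No paired analysis was possible because each condition had 1 array, beyond the additive fit, in which each factor is a block for the other. Signals near background limit the ratios of dim probes.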
